A study of Mus musculus with 11 samples.

Results

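The D cyclins Ccnd1, Ccnd2 and Ccnd3, the kinase inhibitor genes Cdkn1a and Cdkn1b, Trp53 with its inhibitor gene Mdm2, and the growth arrest and stress genes Gadd45a, Gadd45b and Gdf15 were followed in whole kidneys of a mouse model of Alport syndrome. These 10 genes were taken by name from the 24914 rows of the deposited count files, and all 10 had a row and passed the filter on low counts. The choice was made with earlier results of these data known. The 11 libraries came from 129X1/SvJ mice at 5.5 weeks of age. In 4 libraries the mice were Col4a3-/- and received antimiR-21, an oligonucleotide that inhibits the microRNA miR-21 (KO antimiR-21). In 4 they were Col4a3-/- and received PBS (KO PBS), and in 3 they were Col4a3+/- and received PBS (HET PBS). All mice therefore carry at least a single disrupted Col4a3 allele. Heterozygous mice given antimiR-21 and mice given a control oligonucleotide were not analysed here, so PBS is the reference for the drug, and the labels give no dose, sex or time of collection.

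D cyclins bind Cdk4 and Cdk6 in the G1 phase of the cell cycle, and the active kinase phosphorylates the retinoblastoma protein, which frees E2F factors to switch on genes of DNA replication. The proteins of Cdkn1a (p21) and Cdkn1b (p27) hold cyclin-dependent kinases back. The transcription factor p53, encoded by Trp53, is stabilised by DNA damage and other stress and induces Cdkn1a, Mdm2 and Gadd45a, while Mdm2 protein marks p53 for degradation. In injured kidney tubules, p21 is known to be induced and to limit cell cycle entry. Since p53 is controlled largely at the protein level, messenger RNA is a partial view of its activity.

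Regulatory sequence of the genes is shown first, because Cdkn1a is the member the comparisons turn on and carries a known p53 response element. RefSeq promoter windows of 300 bases on GRCm38.p6 were at hand for 8 of the 10 genes, 11 windows in all, with Ccnd1 and Ccnd2 named only. The p53 response element was searched as a pair of 10-base sites side by side, a single mismatch allowed in the pair. Its consensus reads the same on both strands. It was found in 1 of the 11 windows, upstream of Cdkn1a, and in 0.0883% of the 32851 windows of all genes. The window lies at chr17:29090729-29091028 on the plus strand, and the capitals mark the element at chr17:29090928-29090947. It lies from 51 to 32 bases before the RefSeq start that defines this window. Whether the Cdkn1a transcripts of these kidneys begin at that start was not tested.
Cdkn1a: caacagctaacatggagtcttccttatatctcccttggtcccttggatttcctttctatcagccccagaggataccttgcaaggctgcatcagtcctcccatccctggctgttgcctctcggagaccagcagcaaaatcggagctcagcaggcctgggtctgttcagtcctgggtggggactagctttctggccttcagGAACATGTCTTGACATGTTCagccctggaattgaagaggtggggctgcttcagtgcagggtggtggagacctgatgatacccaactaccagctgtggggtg

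The E-box CACGTG, the hexamer that the clock factors Clock and Arntl and the Myc family bind, was searched because Cdkn1a levels are set beside clock genes further on. The hexamer also reads the same on both strands, and 7.15% of all windows hold it. Other clock motifs and sequence outside the windows were not searched, so whether clock factors act on Cdkn1a was not tested. Cdkn1a was not among the 3 members with a match, each shown with 17 bases on either side and the hexamer in capitals: Gadd45b at chr10:80929889-80929928 (plus strand), Gdf15 at chr8:70632156-70632195 (minus strand) and Trp53 at chr11:69580352-69580391 (plus strand).
Gadd45b: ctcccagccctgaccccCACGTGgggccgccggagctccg
Gdf15: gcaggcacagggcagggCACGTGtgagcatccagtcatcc
Trp53: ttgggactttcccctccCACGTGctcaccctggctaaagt

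The microRNA that antimiR-21 inhibits, miR-21a-5p, is encoded on chromosome 11 at chr11:86584120-86584141 on the minus strand of GRCm38.p6. Its seed, bases 2 to 8, is in capitals.
miR-21a-5p: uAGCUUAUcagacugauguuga
The 7-base match to this seed, ATAAGCT, was searched on the sense strand in the longest GENCODE vM21 3 prime UTR of each member, from 150 bases in Gdf15 to 5173 bases in Ccnd2. It occurred once, in Cdkn1b, at base 1106 of 3439, and in 0 of the other members' UTRs. The Cdkn1b UTR is the longest after that of Ccnd2. How often the match occurs in the UTRs of all genes was not counted, so this match does not single out Cdkn1b. The site lies at chr6:134923169-134923197 on the plus strand of GRCm38, with the seed match in capitals.
Cdkn1b: tataatagtttATAAGCTccttatgaaga

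Each library held 17.9 to 39.7 M counts. Values below are CPM, counts brought to a common library size after TMM scaling. Log2 differences, their standard errors (SE) and 95% intervals come from an edgeR quasi-likelihood fit of 14380 loci in all 11 libraries, and adjusted p-values are Benjamini-Hochberg values over all of them, called at 0.05. The targeted Col4a3 gene shares its deposited count with Col4a4 in every library, so it does not check the genotype labels. That joint locus stood at 515 to 809 CPM in KO antimiR-21 kidneys, 607 to 997 in KO PBS kidneys and 870 to 1270 in HET PBS. Reads of Ddx3y, a gene of the Y chromosome, stood at 89.7 to 109 CPM in 1 of 4 KO antimiR-21, 2 of 4 KO PBS and 2 of 3 HET PBS libraries, while the others had 0.172 CPM or less. With that status as a term beside the groups, edgeR called 17.9% of all loci between libraries with and without Y-linked reads. Kidney markers were present in every library: the 10 proximal tubule loci tested summed to 27300 to 41900 CPM in KO antimiR-21 kidneys, 22900 to 38200 in KO PBS kidneys and 29800 to 47300 in HET PBS. In whole tissue, fewer cells of a type and less RNA per cell cannot be told apart.

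None of the 10 genes was called in any of the 3 comparisons, at an adjusted p under 0.05, by edgeR, DESeq2 or limma. Over all loci edgeR called 0% between KO antimiR-21 and KO PBS, 0% between KO PBS and HET PBS and 0.00695%, a single locus (Fcrls), between KO antimiR-21 and HET PBS. At an unadjusted p under 0.05 there were 3 of 10 members between KO antimiR-21 and KO PBS (Cdkn1a, Cdkn1b and Trp53), beside 8.21% of all loci. Between KO PBS and HET PBS there was 1 of 10 (Cdkn1a), beside 6.94% of all loci, and between KO antimiR-21 and HET PBS 1 of 10 (Ccnd2), beside 8.05%. Group ranges did not overlap for 2 of 10 members between KO antimiR-21 and KO PBS (Cdkn1a and Cdkn1b, 4.28% of all loci), 2 of 10 between KO PBS and HET PBS (Cdkn1a and Gdf15, 6.76%) and 0 of 10 between KO antimiR-21 and HET PBS (5.98%). The median log2 difference of the 10 genes was 0.00, 0.09 and 0.03 in the same order of comparisons, against 0.00, -0.02 and 0.00 over all loci.

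**Figure D1:**
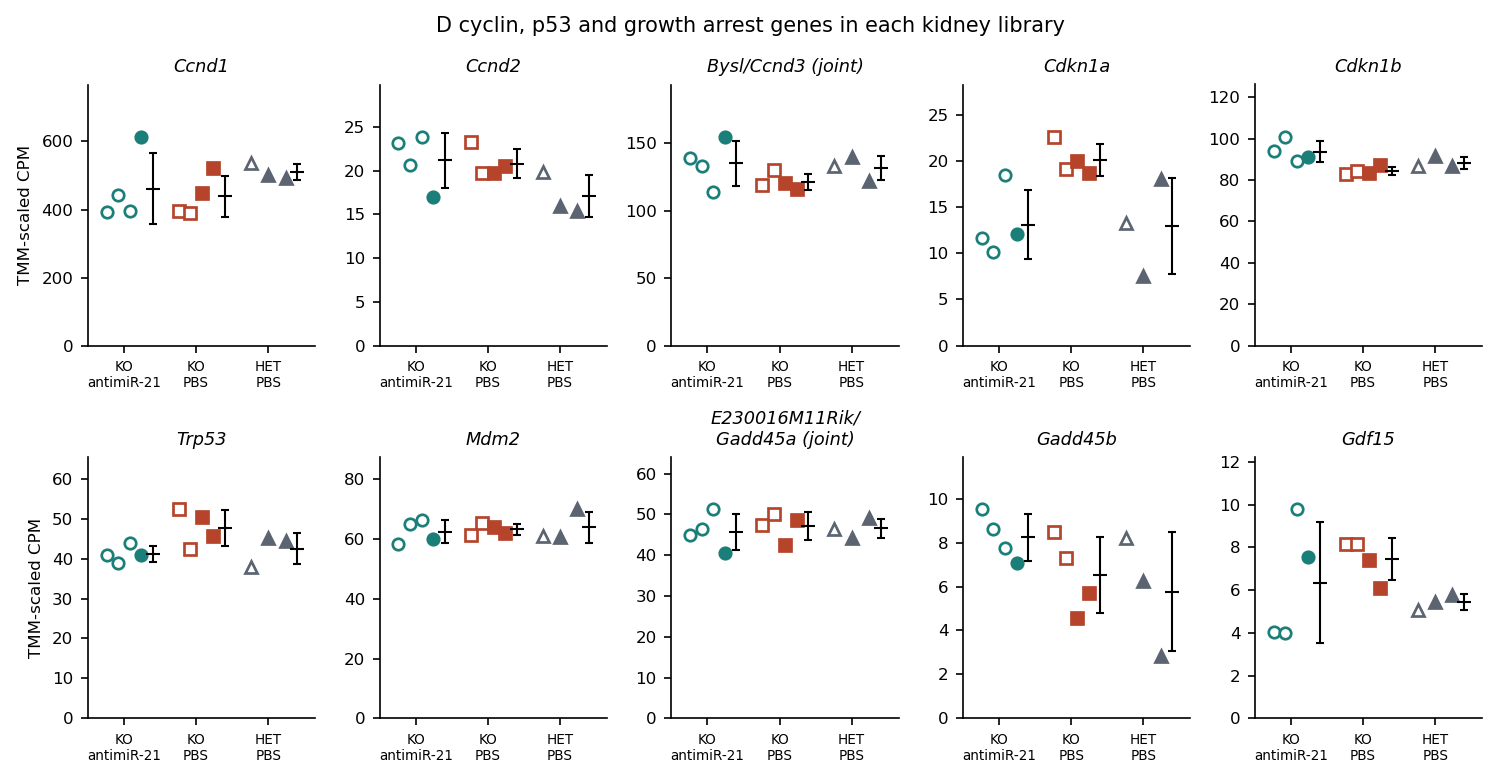
TMM-scaled CPM of each of the 10 genes (y axis, from 0) in every library, with KO antimiR-21 on the left, KO PBS in the middle and HET PBS on the right; filled symbols are libraries with Y-linked reads, open ones without, and the black bar is the mean ± SD of the group. Cdkn1a lies at 18.7 to 22.6 CPM in all 4 KO PBS libraries, while KO antimiR-21 and HET PBS each hold a library near 18 CPM and others at 13.3 CPM or less.

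Levels per kilobase of annotated exon put the 8 genes with reads of their own in order. Ccnd1 stood far above the others, at 97.9 ± 22.1 CPM per kb in KO antimiR-21 kidneys (SD, n = 4), 93.0 ± 13.0 in KO PBS kidneys (n = 4) and 108 ± 4.93 in HET PBS (n = 3). Cdkn1b came next, at 20.6 ± 1.15, 18.5 ± 0.415 and 19.4 ± 0.641 CPM per kb in KO antimiR-21, KO PBS and HET PBS. Mdm2 (12.3 ± 0.757, 12.5 ± 0.35 and 12.6 ± 1.02 CPM per kb in those groups) and Trp53 (10.2 ± 0.514, 11.8 ± 1.10 and 10.5 ± 0.969) were neighbours, and in KO PBS they differed by less than the SD of Trp53. The lowest level was that of Ccnd2, at 2.25 ± 0.328, 2.21 ± 0.183 and 1.82 ± 0.260 CPM per kb. Between Trp53 and Ccnd2 lay Cdkn1a, Gadd45b and Gdf15, at 3.66 ± 1.04, 5.19 ± 0.667 and 3.42 ± 1.53 CPM per kb in KO antimiR-21, at 5.66 ± 0.493, 4.10 ± 1.09 and 4.03 ± 0.528 in KO PBS and at 3.63 ± 1.46, 3.63 ± 1.71 and 2.93 ± 0.193 in HET PBS. These 3 had no common order over the groups. The highest mean was that of Gadd45b in KO antimiR-21 and that of Cdkn1a in KO PBS, while in HET PBS they differ by less than the SD of Cdkn1a or of Gadd45b. The same 3 also varied most between libraries: the highest library was 3.34 times the lowest for Gadd45b, 2.98 times for Cdkn1a and 2.46 times for Gdf15, against 1.20 times for Mdm2 and 1.22 times for Cdkn1b.

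Of the D cyclins, Ccnd1 (cyclin D1, chromosome 7, 144929931 to 144939925, minus strand) stood at 393, 443, 395 and 614 CPM in KO antimiR-21 kidneys, 395, 389, 449 and 521 in KO PBS kidneys and 536, 502 and 492 in HET PBS. The ranges overlap in every pair of groups, and the highest value of all is KO antimiR-21 replicate 4. Its log2 difference was 0.07 (SE 0.148) for KO antimiR-21 minus KO PBS, -0.22 (SE 0.159, edgeR adjusted p = 0.815) for KO PBS minus HET PBS and -0.14 (SE 0.159) for KO antimiR-21 minus HET PBS. Without KO antimiR-21 replicate 4 the difference to KO PBS was -0.11 and that to HET PBS -0.31. That library has Y-linked reads, and across the status Ccnd1 averaged 515 ± 61.1 CPM in the 5 libraries with Y-linked reads and 425 ± 57.9 in the 6 without (SD). The log2 difference for the status, with the groups in the fit, was 0.28 (SE 0.0983, edgeR adjusted p = 0.0708).

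Ccnd2 (cyclin D2, chromosome 6, 127125162 to 127152193, minus strand) stood at 23.2, 20.7, 23.9 and 17 CPM in KO antimiR-21 kidneys, 23.3, 19.7, 19.7 and 20.6 in KO PBS kidneys and 19.9, 16.0 and 15.4 in HET PBS. Only the HET PBS library without Y-linked reads reached the KO PBS range. The log2 difference was 0.02 (SE 0.127) for KO antimiR-21 minus KO PBS, 0.28 (SE 0.137, edgeR adjusted p = 0.743) for KO PBS minus HET PBS and 0.31 (SE 0.138, unadjusted p = 0.045, adjusted p = 0.61) for KO antimiR-21 minus HET PBS. With and without Y-linked reads it averaged 17.7 ± 2.28 and 21.8 ± 1.88 CPM (SD, 5 and 6 libraries; log2 difference -0.26, SE 0.0888, edgeR adjusted p = 0.0634), opposite in sign to Ccnd1.

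Ccnd3 (cyclin D3, chromosome 17, 47505051 to 47599691, plus strand) overlaps Bysl, a gene of ribosome assembly at 47599331 to 47611492 on the minus strand. The genes share only the bases from 47599331 to 47599691, yet both names carry the same count in every library. The sources used here give no counting options that would account for this. The values are those of the joint Bysl/Ccnd3 locus and cannot be given to either gene. It stood at 139, 133, 114 and 155 CPM in KO antimiR-21 kidneys, 119, 130, 121 and 116 in KO PBS kidneys and 133, 140 and 122 in HET PBS, with overlapping ranges in every pair of groups. Its log2 differences were 0.16 (SE 0.0925), -0.12 (SE 0.0996) and 0.04 (SE 0.0999) for KO antimiR-21 minus KO PBS, KO PBS minus HET PBS and KO antimiR-21 minus HET PBS. The lowest of their edgeR adjusted p-values was 0.724.

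Cdkn1a (p21, chromosome 17, 29090976 to 29100727, plus strand) had the largest log2 differences of the 10 genes in both comparisons that involve KO PBS. The 4 KO antimiR-21 libraries stood at 11.6, 10.1, 18.5 and 12.1 CPM, the 4 KO PBS libraries at 22.6, 19.1, 20 and 18.7 and the 3 HET PBS libraries at 13.3, 7.58 and 18. All KO PBS values lie above all others, by as little as the step between 18.7 in KO PBS, 18.5 in KO antimiR-21 replicate 3 and 18 in HET PBS replicate 3. Between KO antimiR-21 and KO PBS the log2 difference was -0.62, a fold of 0.65 (SE 0.245, 95% interval -1.16 to -0.08, edgeR unadjusted p = 0.0272, adjusted p = 0.531). For KO PBS minus HET PBS it was 0.64, a fold of 1.56 (SE 0.266, 95% interval 0.06 to 1.22, edgeR unadjusted p = 0.0344, adjusted p = 0.683). Exact two-sided permutation tests gave p = 0.0286 for both, unadjusted and the smallest value that these group sizes allow. KO antimiR-21 and HET PBS differed by 0.02 (SE 0.265, 95% interval -0.56 to 0.60). The comparisons share the KO PBS libraries, so the opposite signs are not separate observations.

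The Cdkn1a difference had a like size at either Y-linked status. Among libraries with Y-linked reads the log2 difference of the means was -0.67 for KO antimiR-21 minus KO PBS (1 and 2 libraries) and 0.72 for KO PBS minus HET PBS (2 and 2). Among those without, it was -0.68 (3 and 2 libraries) and 0.64 (2 and 1). It did depend on single libraries: between KO PBS and HET PBS it was 0.38 without HET PBS replicate 2 and 0.96 without HET PBS replicate 3, and between KO antimiR-21 and KO PBS it ran from -0.84 without KO antimiR-21 replicate 3 to -0.53 without KO antimiR-21 replicate 2. HET PBS replicate 2 is the deepest library, at 39.7 M counts, and without it the edgeR unadjusted p for KO PBS minus HET PBS was 0.118.

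**Figure D2:**
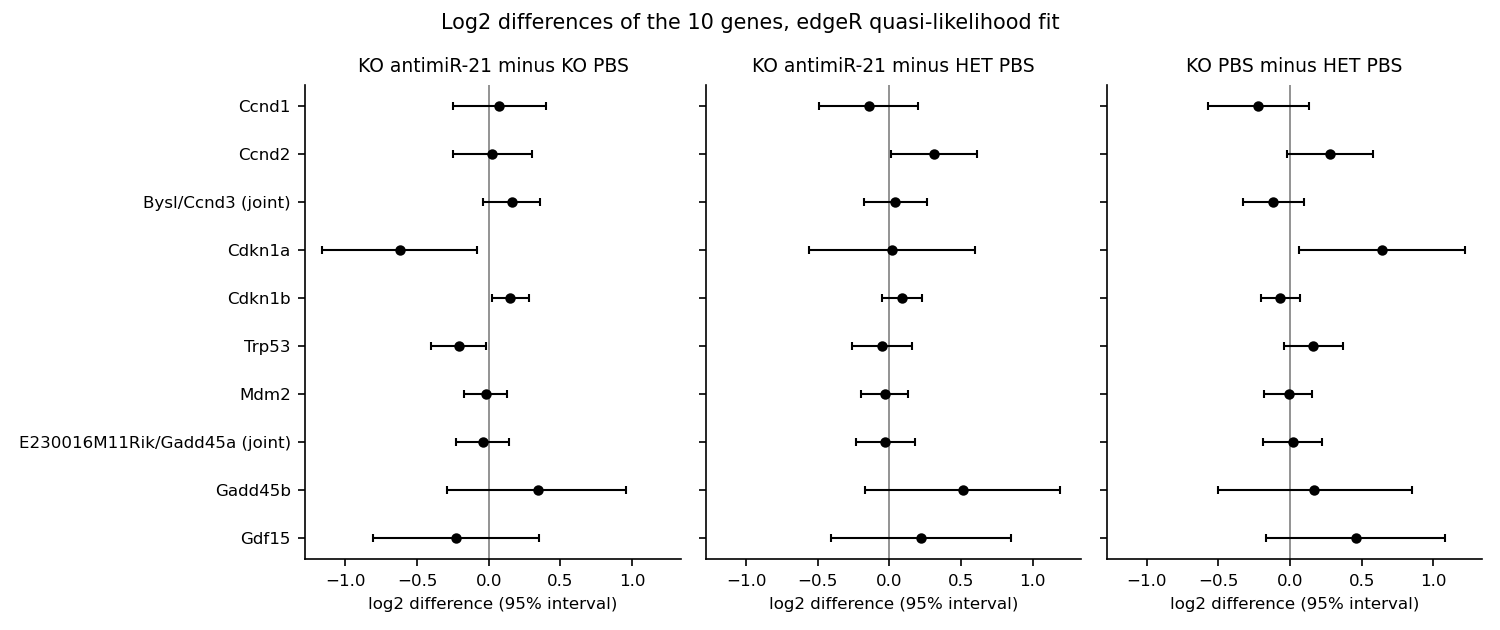
Log2 differences (x axis) of the 10 genes in the edgeR fit with their 95% intervals, for KO antimiR-21 minus KO PBS, KO antimiR-21 minus HET PBS and KO PBS minus HET PBS. Unadjusted intervals leave out 0 for Cdkn1a, Cdkn1b and Trp53 on the left, for Ccnd2 in the middle and for Cdkn1a on the right.

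KO antimiR-21 replicate 3 and HET PBS replicate 3, each the highest of its group in Cdkn1a, also stood apart from their groups in clock genes. Arntl, the clock activator also known as Bmal1, stood at 5.47, 4.97, 18.9 and 4.28 CPM in KO antimiR-21 kidneys, 19.1, 24.5, 28.7 and 30.6 in KO PBS kidneys and 7.64, 3.57 and 23.7 in HET PBS. Per3, a repressor that peaks at another phase, stood at 144, 145, 53.2 and 105 CPM in KO antimiR-21 kidneys, 40.3, 29.0, 40.4 and 40.3 in KO PBS kidneys and 114, 129 and 44.4 in HET PBS. In Cdkn1a, Arntl and Per3 these libraries lie nearest the KO PBS values. The same split held in Npas2, a partner of Arntl, which stood at 12.8 to 26.3 CPM in the KO PBS libraries and these other two and at 1.64 to 4.12 in the remaining 5. These genes were chosen after their values were seen. Over the 17 tested clock loci, replicate 3 was the library of its group nearest the KO PBS mean of log2 CPM in 15 loci in KO antimiR-21 and in 15 in HET PBS. Per1, another clock repressor, was an exception in both groups, at 163, 111, 93 and 56 CPM in KO antimiR-21 kidneys, 59.6, 48.9, 77.1 and 82 in KO PBS kidneys and 93.6, 58.8 and 50.3 in HET PBS.

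The clock list of 17 tested loci, Cdkn1a not among them, had a median log2 difference of 0.53 between KO antimiR-21 and KO PBS, with 8 loci higher and 3 lower at an unadjusted p under 0.05, and of -0.34 between KO PBS and HET PBS, with 0 higher and 7 lower. It was 0.12 between KO antimiR-21 and HET PBS, with 0 loci at such a p. By limma-voom, 3 loci were higher and 7 lower at such a p for KO PBS minus HET PBS. The list pools loci of opposite sign. For KO antimiR-21 minus KO PBS 13 were positive and 4 negative, and for KO PBS minus HET PBS 4 and 13. Its median and sum therefore depend on which loci the list holds. After adjustment edgeR and limma called 0 of them, and DESeq2 called 6 higher for KO antimiR-21 minus KO PBS and 2 lower for KO PBS minus HET PBS. The summed level of the list was 1380 to 2230 CPM in KO antimiR-21 kidneys, 1150 to 1350 in KO PBS kidneys and 1330 to 2030 in HET PBS. Its 2 loci with the smallest p for KO antimiR-21 minus KO PBS were Nr1d2, a nuclear receptor of the clock (189 ± 24.5 and 120 ± 2.76 CPM, log2 difference 0.65), and the joint locus of the repressor Cry2 (54.5 ± 17.1 and 24.8 ± 3.90 CPM, 1.13). Per1 and the joint locus of Nr1d1 had the smallest p for KO antimiR-21 minus HET PBS, and Nr1d2 and Hlf between KO PBS and HET PBS.

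With the log2 level of Arntl added to the fit, the Cdkn1a difference was 0.03 for KO antimiR-21 minus KO PBS (edgeR adjusted p = 0.999) and 0.15 for KO PBS minus HET PBS (adjusted p = 0.998). This term was added after the values were seen, and Arntl splits the libraries as Cdkn1a does. A smaller Cdkn1a difference in this fit was therefore likely from the choice of term, and the part of the clock in that difference was not tested. No KO PBS library lies at low Arntl, so the Cdkn1a level of KO PBS kidneys was not measured there, and the labels give no time of collection. Glucocorticoid-responsive and immediate early genes can also vary with time and handling. Their 15 loci had medians of 0.04, 0.32 and 0.46 for KO antimiR-21 minus KO PBS, KO PBS minus HET PBS and KO antimiR-21 minus HET PBS, and the summed level was 560 to 957 CPM, 477 to 591 and 394 to 710 in KO antimiR-21, KO PBS and HET PBS. In that list Fosb and Tsc22d3 had the smallest p for KO antimiR-21 minus KO PBS, and Egr1 and Egr2 in the other comparisons. By DESeq2, 3 of them were called higher for KO PBS minus HET PBS and 2 for KO antimiR-21 minus HET PBS, and by edgeR 0. Their part in the Cdkn1a difference was not tested.

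**Figure D3:**
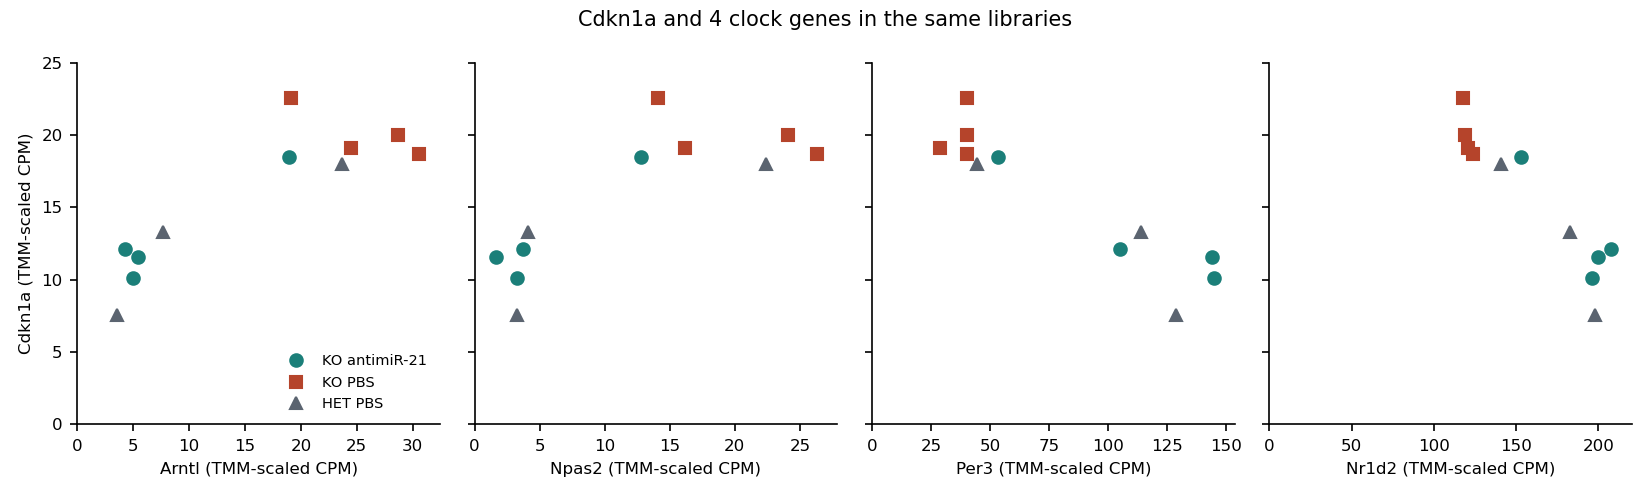
Cdkn1a (y axis) against Arntl, Npas2, Per3 and Nr1d2 (x axes) in the same 11 libraries, all in TMM-scaled CPM, with the group given by colour and symbol. The 4 KO PBS libraries, KO antimiR-21 replicate 3 and HET PBS replicate 3 form a set with Cdkn1a at 18 to 22.6 CPM, and the other 5 libraries lie at 7.58 to 13.3 CPM.

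The libraries were split at the widest gap in Cdkn1a CPM, between 13.3 and 18, a rule that gives 2 sets in any data. No correlation over all 11 is given. The 6 libraries used instead were thus selected on Cdkn1a itself, span only 18 to 22.6 CPM of it and include all KO PBS libraries. Within the 6 libraries at 18 CPM or more, Pearson's r of log2 CPM between Cdkn1a and the other 9 genes ran from -0.77 (Cdkn1b, rho -0.83) to 0.84 (Trp53, rho 0.60), and no relation passed the exact permutation test adjusted over the 9 relations (lowest adjusted p = 0.225). Without the 2 libraries farthest from the median, r with Trp53 was -0.44, so the value of 0.84 rests on those libraries. The profile of Cdkn1a over the 11 libraries was most like those of Plch1, Hn1l, Ttc22, Dtx4 and Adamts1 among 10016 loci of at least 5 CPM, with root mean square log2 distances of 0.135, 0.146, 0.19, 0.215 and 0.227, where a flat profile lies at 0.47. The distance counts the size of the swings as well as their shape. By it Arntl ranked 9533, at 0.741, farther from Cdkn1a than a flat profile. Arntl ran from 3.57 to 30.6 CPM and Cdkn1a from 7.58 to 22.6, so the wider swing of Arntl alone enlarges this distance. The rank therefore does not show that the 2 genes differ in shape.

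Cdkn1b (p27, chromosome 6, 134920401 to 134925513, plus strand) was much steadier. It stood at 93.9, 101, 89.2 and 91.1 CPM in KO antimiR-21 kidneys, 82.8, 84.5, 83.4 and 87.1 in KO PBS kidneys and 86.6, 91.7 and 86.6 in HET PBS. All 4 KO antimiR-21 values lie above all 4 KO PBS values, and HET PBS lies between and overlaps both. The log2 difference between KO antimiR-21 and KO PBS was 0.15, a fold of 1.11 (SE 0.059, 95% interval 0.02 to 0.28, edgeR unadjusted p = 0.0245, adjusted p = 0.528; exact permutation p = 0.0286, the smallest that 4 against 4 libraries allow). For KO PBS minus HET PBS it was -0.07 (SE 0.0636) and between KO antimiR-21 and HET PBS 0.09 (SE 0.0637). Leaving out single libraries moved the difference between KO antimiR-21 and KO PBS. It ran from 0.10 without KO antimiR-21 replicate 2 (edgeR unadjusted p = 0.134) to 0.18 without KO antimiR-21 replicate 3. In a fit of only these 2 groups it was 0.14 (edgeR unadjusted p = 0.0687). Cdkn1b is the member whose 3 prime UTR holds the seed match shown above, and a match alone does not show that miR-21 acts on it.

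Trp53 (p53, chromosome 11, 69580359 to 69591873, plus strand) stood at 41.0, 38.9, 43.9 and 40.8 CPM in KO antimiR-21 kidneys, 52.3, 42.4, 50.3 and 45.6 in KO PBS kidneys and 38.0, 45.1 and 44.4 in HET PBS. Only KO PBS replicate 2 falls within the KO antimiR-21 range. The log2 difference was -0.21 between KO antimiR-21 and KO PBS (SE 0.0884, 95% interval -0.40 to -0.02, edgeR unadjusted p = 0.0344, adjusted p = 0.563; exact permutation p = 0.0571), 0.16 for KO PBS minus HET PBS (SE 0.0954) and -0.05 for KO antimiR-21 minus HET PBS (SE 0.0953).

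Mdm2 (chromosome 10, 117688875 to 117710758, minus strand) was the steadiest of the 10 genes. Its libraries stood at 58.4, 65.0, 66.3 and 59.9 CPM in KO antimiR-21 kidneys, 61.5, 65.4, 64.1 and 62.1 in KO PBS kidneys and 61.1, 60.8 and 69.9 in HET PBS, so the groups lie on top of each other. Log2 differences were -0.02 (95% interval -0.17 to 0.13), -0.01 (-0.18 to 0.15) and -0.03 (-0.20 to 0.13) for KO antimiR-21 minus KO PBS, KO PBS minus HET PBS and KO antimiR-21 minus HET PBS. A difference of the size seen for Cdkn1a lies outside these intervals for Mdm2.

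Gadd45a (chromosome 6, 67035096 to 67037457, minus strand), which binds PCNA and stress kinases after DNA damage, overlaps the noncoding gene E230016M11Rik on the plus strand (67036599 to 67080654) and has the same count. The joint locus stood at 45.0, 46.3, 51.2 and 40.5 CPM in KO antimiR-21 kidneys, 47.5, 50.1, 42.4 and 48.6 in KO PBS kidneys and 46.5, 44.3 and 49.0 in HET PBS. The groups overlap throughout, with log2 differences of -0.04 (SE 0.0861), 0.02 (SE 0.0927) and -0.03 (SE 0.0928) for KO antimiR-21 minus KO PBS, KO PBS minus HET PBS and KO antimiR-21 minus HET PBS.

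Gadd45b (chromosome 10, 80930073 to 80932204, plus strand), a family member induced by TGF-beta and NF-kB, stood at 9.51, 8.62, 7.76 and 7.06 CPM in KO antimiR-21 kidneys, 8.49, 7.31, 4.58 and 5.71 in KO PBS kidneys and 8.20, 6.26 and 2.84 in HET PBS. The lowest values within each group belong to libraries with Y-linked reads. Over all groups the 5 libraries with such reads averaged 5.29 ± 1.64 CPM and the 6 without 8.31 ± 0.759 (SD), a log2 difference of -0.57 with the groups in the fit (SE 0.191, edgeR adjusted p = 0.056). Between groups the log2 difference was 0.34 (SE 0.287) for KO antimiR-21 minus KO PBS, 0.17 (SE 0.31) for KO PBS minus HET PBS and 0.51 (SE 0.312, edgeR adjusted p = 0.627) for KO antimiR-21 minus HET PBS. Without HET PBS replicate 3 the difference was -0.14 for KO PBS minus HET PBS and 0.19 for KO antimiR-21 minus HET PBS. Without HET PBS replicate 1 these were 0.50 and 0.84, the second with an edgeR unadjusted p of 0.0243 and an adjusted p of 0.214. For KO antimiR-21 minus KO PBS the value was 0.20 without KO PBS replicate 3.

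Gdf15 (chromosome 8, 70629393 to 70632456, minus strand) encodes a secreted stress hormone of the TGF-beta family, induced by p53 and by the integrated stress response. It stood at 4.04, 3.98, 9.77 and 7.55 CPM in KO antimiR-21 kidneys, 8.17, 8.17, 7.40 and 6.09 in KO PBS kidneys and 5.06, 5.46 and 5.78 in HET PBS. All KO PBS values lie above the HET PBS range, whereas KO antimiR-21 replicates 1 and 2 lie below both groups and replicate 3 above them. The log2 difference was -0.23 between KO antimiR-21 and KO PBS (SE 0.266, 95% interval -0.81 to 0.35), 0.46 for KO PBS minus HET PBS (SE 0.288, 95% interval -0.17 to 1.08, edgeR adjusted p = 0.792; exact permutation p = 0.0571) and 0.22 for KO antimiR-21 minus HET PBS (SE 0.289). Without KO antimiR-21 replicate 3 the difference to KO PBS was -0.52 (edgeR unadjusted p = 0.0501, adjusted p = 0.485) and that to HET PBS -0.07. Without replicate 1 or 2 the difference to KO PBS was -0.07 or -0.08. With 72 to 199 counts per library, Gdf15 rests on few reads beside most other members. Its profile was most like those of Fmn1, Pign, Spag1, Pttg1 and Dennd4c, at root mean square log2 distances of 0.212, 0.216, 0.231, 0.244 and 0.248, where a flat profile lies at 0.40.

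With Y-linked status as a term, 0 of the 10 members passed the adjusted threshold for the status. A test of whether the status changes a group difference called 0 loci in each of the 3 comparisons. Of the members, Ccnd1 between KO antimiR-21 and HET PBS had the smallest p in it (difference of log2 differences, with minus without Y-linked reads, 0.69, SE 0.18, unadjusted p = 0.00329, edgeR adjusted p = 1). That value rests on 1 KO antimiR-21 library with and 1 HET PBS library without Y-linked reads.

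Known p53 target genes other than the members showed no common direction. Of 38 tested, 22 had positive and 16 negative log2 differences between KO antimiR-21 and KO PBS (median 0.02). At an unadjusted p under 0.05 there were 9, of which 3 were higher and 6 lower, beside 8.21% of all loci. EdgeR called 0 of the 38 (1, lower, by DESeq2). The 2 with the smallest p had opposite signs. Ckap2, a spindle protein gene also expressed with the cell cycle, stood at 4.09 ± 1.68 CPM in KO antimiR-21 kidneys and 8.96 ± 1.84 in KO PBS (log2 difference -1.13, SE 0.311), and Sesn2, a stress-induced regulator of mTORC1, at 75.5 ± 10.6 and 54.8 ± 3.48 CPM (0.46, SE 0.139). Between KO PBS and HET PBS the median was 0.01, with 1 higher (Phlda3, an inhibitor of Akt signalling) and 1 lower (Rrm2b, a ribonucleotide reductase subunit) at such a p. For KO antimiR-21 minus HET PBS it was -0.04, with 3 higher and 1 lower, Btg2 and Ccng2 having the smallest p. The summed level of these targets was 1960 to 2020 CPM in KO antimiR-21 kidneys, 1880 to 1990 in KO PBS kidneys and 2030 to 2070 in HET PBS.

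Of 20 tested regulators of p53 and DNA damage kinases, 0 were called by edgeR or DESeq2. Their medians were -0.08 between KO antimiR-21 and KO PBS, -0.04 between KO PBS and HET PBS and -0.11 between KO antimiR-21 and HET PBS, with 1, 0 and 1 at an unadjusted p under 0.05, all lower. Brca1, a DNA repair gene, stood at 4.68 ± 1.81 CPM in KO antimiR-21 kidneys and 8.46 ± 2.42 in KO PBS. Rfwd2, which encodes the p53 ubiquitin ligase Cop1, stood at 37.3 ± 2.02 and 41.7 ± 2.51 CPM in those groups. In the other comparisons Trp53bp2 and Rad17 were also among the 2 with the smallest p.

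The G1 list of kinases, other inhibitors and pocket proteins had 26 tested loci and 0 called by edgeR, with medians of -0.11 for KO antimiR-21 minus KO PBS, 0.02 for KO PBS minus HET PBS and -0.10 for KO antimiR-21 minus HET PBS. Between KO antimiR-21 and KO PBS, 3 were lower at an unadjusted p under 0.05, led by Cdk6, a kinase partner of the D cyclins (31.2 ± 5.41 and 40.8 ± 2.76 CPM, log2 difference -0.39), and Tfdp1, a partner of the E2F factors (32.9 ± 2.87 and 40.0 ± 3.17 CPM, -0.28). Cdkn1c, the third inhibitor of the p21 family and a gene of mature podocytes, stood at 60.2 ± 8.92 CPM in KO antimiR-21 kidneys, 53.9 ± 11 in KO PBS kidneys and 30.1 ± 6.96 in HET PBS. Its log2 difference was 0.84 for KO PBS minus HET PBS (SE 0.19, edgeR adjusted p = 0.37) and 1 for KO antimiR-21 minus HET PBS (SE 0.191, adjusted p = 0.364), without overlap of the ranges in either comparison. DESeq2 called 1 G1 locus, higher, in each of these comparisons. The 7 podocyte marker loci had medians of 0.14, 0.18 and 0.32 for KO antimiR-21 minus KO PBS, KO PBS minus HET PBS and KO antimiR-21 minus HET PBS. The part of podocyte RNA in the Cdkn1c values was not tested. Myc was the other G1 gene with a small p for KO PBS minus HET PBS (11.7 ± 2.95 and 7.94 ± 2.20 CPM).

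Genes of mitosis and replication act after the G1 step. Between KO antimiR-21 and KO PBS, 29 of 32 tested loci had negative log2 differences (median -0.62) and 18 were lower at an unadjusted p under 0.05, with 0 called by edgeR and 6, all lower, by DESeq2. The joint locus with Foxm1, which drives transcription of mitotic genes, stood at 27.9 ± 2.29 CPM in KO antimiR-21 kidneys and 37.0 ± 2.66 in KO PBS, and the mitotic cyclin gene Ccnb2 at 7.74 ± 2.87 and 17.1 ± 3.89 CPM. The medians were 0.25 between KO PBS and HET PBS, with 1 locus higher at such a p, and -0.40 between KO antimiR-21 and HET PBS, with 3 lower. Gmnn, an inhibitor of replication licensing, and Ccnb1 were also among those with the smallest p there. Mki67, a marker of cycling cells, stood at 10.4, 13.4, 23.9 and 30.6 CPM in KO antimiR-21 kidneys, 44.2, 37.5, 60.3 and 37.5 in KO PBS kidneys and 20.3, 19.9 and 48.8 in HET PBS. HET PBS replicate 3, high in Cdkn1a and Arntl, is thus also high in Mki67, while KO antimiR-21 replicate 3 is below replicate 4. The set of 18 lower mitotic loci stands beside a D cyclin group in which none of the 3 had such a p for KO antimiR-21 minus KO PBS.

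**Figure D4:**
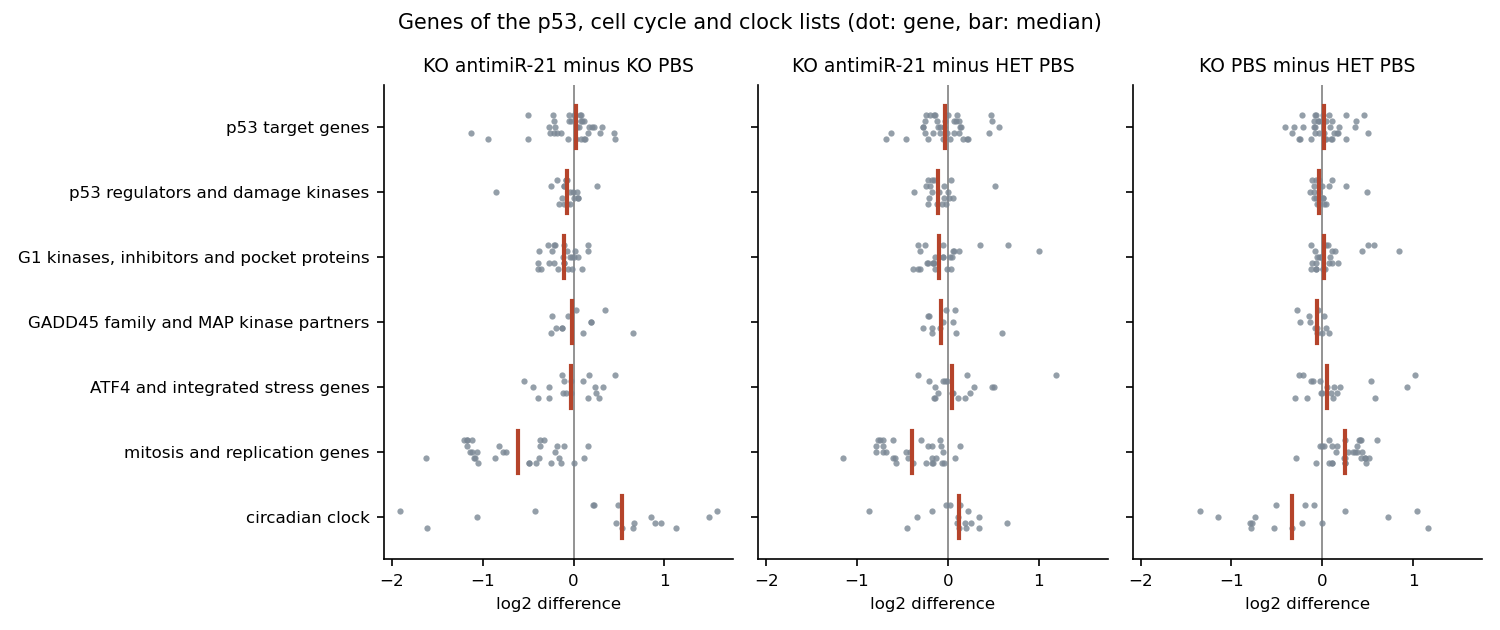
Log2 differences (x axis) of the tested genes of 7 lists, a dot for each gene and a bar at the list median, for KO antimiR-21 minus KO PBS, KO antimiR-21 minus HET PBS and KO PBS minus HET PBS; the 10 members are left out of the lists. The medians of the mitosis and replication list lie at -0.62, -0.40 and 0.25 and those of the clock list at 0.53, 0.12 and -0.34, and those of the other 5 lists lie between -0.11 and 0.05.

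The GADD45 family with its MAP kinase partners had 12 tested loci, 0 called by edgeR or DESeq2, and medians of -0.02, -0.06 and -0.07 for KO antimiR-21 minus KO PBS, KO PBS minus HET PBS and KO antimiR-21 minus HET PBS. At an unadjusted p under 0.05 there were 0, 1 and 1, both lower. Mapk14, the p38 kinase that Gadd45a can activate, stood at 177 ± 17.8 CPM in KO antimiR-21 kidneys, 155 ± 10.7 in KO PBS kidneys and 183 ± 17.7 in HET PBS. The joint locus of the p38 activator Map2k3 and the genes Map2k4 and Mapk8 were the others with the smallest p. The list of ATF4 and the integrated stress response, the other route to Gdf15, had 19 tested loci, 0 called by edgeR or DESeq2, and medians of -0.03, 0.05 and 0.04 in those comparisons, with 4 loci higher at an unadjusted p under 0.05 between KO PBS and HET PBS. Mthfd2, a mitochondrial folate enzyme, stood at 5.10 ± 0.779 CPM in KO antimiR-21 kidneys, 7.41 ± 1.45 in KO PBS kidneys and 5.13 ± 0.567 in HET PBS. Nupr1, a stress-induced chromatin protein gene, stood at 33.4 ± 13.0, 29.6 ± 12.5 and 14.6 ± 6.76 CPM in the same groups. Ppp1r15a was the other gene with a small p for KO antimiR-21 minus HET PBS.

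In the marker lists of injury and of other cell types, edgeR called 0 loci in every comparison, and their values are given beside those of the members. All 18 injured tubule loci had positive log2 differences between KO PBS and HET PBS (median 0.77, 12 at an unadjusted p under 0.05), with Lcn2 at 64.2 ± 40.5 and 3.82 ± 1.49 CPM and Timp1 at 6.58 ± 5.84 and 0.614 ± 0.317 CPM. The medians were -0.29 between KO antimiR-21 and KO PBS, where Sox4 and Havcr1 had the smallest p, and 0.59 between KO antimiR-21 and HET PBS. Their summed level was 2960 to 3640 CPM in KO antimiR-21 kidneys, 2270 to 8230 in KO PBS kidneys and 1400 to 2780 in HET PBS. The sum overlaps between KO PBS and HET PBS and is made up largely of Spp1, which encodes osteopontin and averaged 2350 ± 334 CPM in KO antimiR-21 kidneys, 3420 ± 2410 in KO PBS kidneys and 1330 ± 636 in HET PBS.

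Macrophage markers had medians of -0.02, 0.61 and 0.64 over 13 loci for KO antimiR-21 minus KO PBS, KO PBS minus HET PBS and KO antimiR-21 minus HET PBS, led by Cd14 and Lyz2 between KO PBS and HET PBS and by Itgam and Emr1 (F4/80) for KO antimiR-21 minus HET PBS. Emr1 and the joint locus of Csf1r had the smallest p for KO antimiR-21 minus KO PBS. The 10 fibroblast loci had medians of -0.30, 0.75 and 0.51 in those comparisons, with Lum, Col3a1, Col1a1 and Dcn among those with the smallest p. Medians were -0.18, 0.33 and 0.58 for 8 lymphocyte loci (Nkg7, Cd8a and Ptprc), 0.04, 0.02 and 0.08 for 8 endothelial loci (Flt1, Kdr and Tek) and 0.17, -0.30 and -0.12 for 10 proximal tubule loci. Of the last, the joint locus of Slc5a12 and Slc13a3 had the smallest p for KO antimiR-21 minus KO PBS, that of Slc34a1 and that of Slc5a12 between KO PBS and HET PBS, and that of Slc5a2 and Slc22a6 between KO antimiR-21 and HET PBS. In the podocyte list Plce1 and Synpo were named by the same rule. For KO PBS minus HET PBS, DESeq2 called 5 injured tubule, 2 macrophage and 3 fibroblast loci, and for KO antimiR-21 minus HET PBS it called 3, 4 and 1, all higher, while edgeR and limma called 0. The part of any cell type in the values of the 10 genes was not tested.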

How the data were processed

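Per the labels' protocols, libraries of whole kidney RNA were made with TruSeq v2, which does not mark strand. Per the submitters' processing notes, the tools were HTSeq 0.5.4p5, STAR, limma, FastQC and SAMtools on mm10; the sources used here give no annotation or counting options. The authors deposited, per library, estimated counts per gene that are not normalized (47.4% of the values above 0 were not whole, in steps of 0.5), and a log2 expression matrix, which served as an alternative.

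Names with identical counts in all 11 libraries were joined into 1513 joint loci with a total of at least 50, written with a slash, which took totals from 22.4 to 49.7 M as deposited to 17.9 to 39.7 M. Counts were rounded, filtered with filterByExpr, scaled by TMM (factors 0.917 to 1.08) and entered edgeR 4.0.16 (R 4.3.3; glmQLFit, robust; biological coefficient of variation 0.215) in 1 fit of the 3 groups, two-sided. The procedure was tested on simulated counts whose planted changes were larger than any member difference, so that test does not cover changes of the members' size. No library was a duplicate of another. Positions and UTRs are from GENCODE vM21 (GRCm38), promoters and the microRNA from RefSeq (GRCm38.p6). Likeness used log2 CPM with a prior count of 2.

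The members and lists were chosen with earlier results of these data known. From each list and comparison the 2 non-member genes with the smallest p are named, and Arntl, Npas2, Per3, Mki67 and Spp1 were named after their values were seen. Some genes that this rule names are not reported here, and several list genes were not analysed here. Replicate numbers were not taken as pairs in the main fit, since the labels give groups only. Alternatives were RLE scaling, DESeq2 1.42.0, limma 3.58.1 (voom, and on the deposited matrix), no filter, rows as deposited, 2-group fits, a replicate block, Y-linked status (Ddx3y above 5 CPM) or Arntl as a term, and leaving out each library. Correlations over all 11 libraries had been planned and are replaced by those within 6.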

Additional observations from a re-analysis of the deposited data

How the results depend on the processing

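The number of the 10 genes called stayed at 0 in all 3 comparisons under every alternative run, whereas calls over all loci moved: DESeq2 called 72 higher and 12 lower for KO PBS minus HET PBS, 84 and 54 for KO antimiR-21 minus KO PBS and 65 and 9 for KO antimiR-21 minus HET PBS, where edgeR called 0 and 0, 0 and 0, and 1 and 0. Of 520 alternative values, 26 turned the direction and 494 did not, and 13 of the 30 gene and comparison pairs never turned. Values that round to 0.00 have no direction and are counted among those that did not turn. With Arntl as a term, chosen after seeing the data, KO antimiR-21 minus KO PBS turned for Ccnd1 (-0.06), Ccnd3 (-0.06), Cdkn1a (0.03), Mdm2 (0.11), Gadd45a (0.10), Gadd45b (-0.17) and Gdf15 (0.06), and KO PBS minus HET PBS for Ccnd3 (0.06) and Gadd45a (-0.10). With Y-linked status as a term, Ccnd2 turned to -0.05 for KO antimiR-21 minus KO PBS and Cdkn1a to -0.02 for KO antimiR-21 minus HET PBS; the cause was not tested. Leaving out a library each time gave -0.05 to 0.07 for Mdm2 and -0.14 to 0.50 for Gadd45b (KO PBS minus HET PBS). It gave -0.11 to 0.17 for Ccnd1, -0.04 to 0.10 for Ccnd2 and -0.06 to 0.01 for Mdm2 (KO antimiR-21 minus KO PBS). For KO antimiR-21 minus HET PBS it gave -0.26 to 0.32 for Cdkn1a, -0.03 to 0.12 for Ccnd3, -0.07 to 0.03 for Mdm2, -0.08 to 0.03 for Gadd45a and -0.07 to 0.39 for Gdf15. Replicate numbers correlated at -0.44 to 0.63 between groups, and with a replicate block edgeR called 18 higher and 8 lower loci for KO antimiR-21 minus KO PBS, 2 and 0 for KO PBS minus HET PBS and 3 and 1 for KO antimiR-21 minus HET PBS. In that replicate block fit Cdkn1a stood at -0.67 (adjusted p = 0.186) for KO antimiR-21 minus KO PBS and 0.75 (adjusted p = 0.337) for KO PBS minus HET PBS. Without KO antimiR-21 replicate 3 edgeR called 16 higher loci against KO PBS. Relations of Cdkn1a kept their sign on the CPM scale and could not be rerun without a library, which leaves fewer than 6. With 3 or 4 libraries a group, and 64 to 228 counts per library for Gadd45b, its 95% intervals and those of Cdkn1a and Gdf15 are each wider than 1 log2 unit.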
